A study of Mus musculus with 16 samples.

Results

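The region of the Ftx gene holds a small group of miRNA hairpins. Of their mature miRNAs, 3 were sought by name among the 1881 mature mouse miRNAs of a microarray. These were mmu-miR-374b-5p, mmu-miR-374c-5p and mmu-miR-421-3p (written below without the species prefix mmu). The array had probes named for miR-374c-5p and miR-421-3p but none named for miR-374b-5p, so 2 of the 3 names were measured. The signal named miR-374c-5p can also hold miR-374b-5p, as described below. The miRNAs were selected on the differences measured between the genotypes on these same arrays, where miR-374c-5p was among the miRNAs with the largest falls. Their differences between the genotypes are therefore given as a description, without a test, whereas their neighbours on the chromosome were tested.

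The tissue was the wall of the lateral ventricle (LV), the brain cavity lined by ciliated ependymal cells, taken from 8-month-old mice. Wild-type (WT) littermates were compared with Dgcr8+/- mice, which carry 1 inactive copy of Dgcr8 in all cells, on a back-crossed C57BL/6J background and, according to the legend of the array experiment, in males. Each genotype had 8 biological replicates with 1 array each. The array has no probe for Dgcr8 mRNA, so the loss of the gene could not be checked here.

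Dgcr8 is the RNA-binding partner of the nuclease Drosha in the Microprocessor, which cuts miRNA hairpins out of their primary transcripts before Dicer releases the mature miRNA. A mature miRNA recognises its target mRNAs mainly through its seed, the bases near its 5′ end. Ftx is a long noncoding RNA gene of the X-inactivation centre, close to Xist, and is known as a positive regulator of Xist. In bulk tissue, fewer cells that make a miRNA and less of it per cell cannot be told apart.

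In the RefSeq annotation of the mouse build GRCm38.p6, Ftx spans chrX:103560910-103623754, and all 3 hairpin genes lie inside it. Mir421 is at chrX:103572921-103572996 on the minus strand. Mir374b follows after a gap of 63 bases at chrX:103573060-103573154, also on the minus strand. Mir374c, at chrX:103573085-103573133, is on the plus strand, and all of its 49 bases lie within Mir374b. The Mir374c hairpin is thus the reverse complement of an inner stretch of the Mir374b hairpin. A single transcript cannot carry it together with Mir421 and Mir374b, which lie on the opposite strand. The strand of Ftx itself is not given here.

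**Figure D1:**
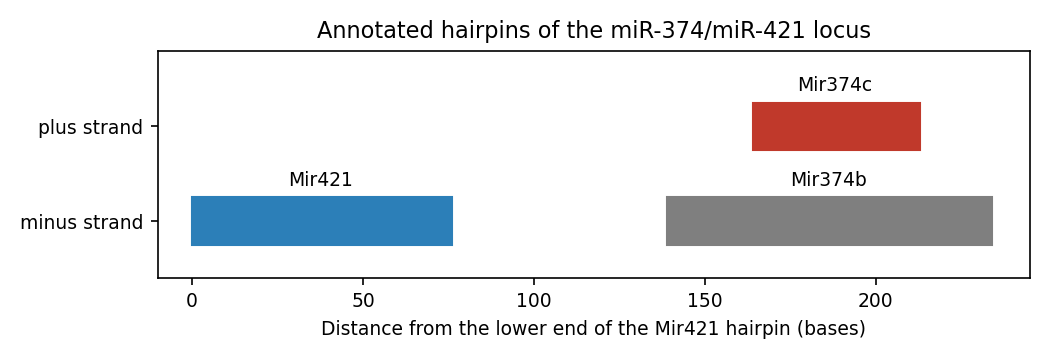
Positions of the annotated hairpins on each strand, in bases from the lower end of Mir421. The Mir374c hairpin of 49 bases lies wholly over the 95 bases of Mir374b on the other strand, and a gap of 63 bases separates Mir374b from Mir421.

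The mature sequences from RefSeq show how close the products of these overlapping hairpins are. They are written 5′ to 3′ with the seed, bases 2 to 8, in capitals.
miR-374b-5p: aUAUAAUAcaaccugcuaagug
miR-374c-5p: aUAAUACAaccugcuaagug
miR-374b-3p: gGUUGUAUuaucauuguccgag
miR-374c-3p: aCUUAGCAgguuguauuau
miR-421-5p: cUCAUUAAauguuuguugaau
The 20 bases of miR-374c-5p are bases 3 to 22 of miR-374b-5p, shown here in capitals within the longer miRNA.
miR-374b-5p: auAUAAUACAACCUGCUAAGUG
The extra 2 bases at the 5′ end of miR-374b-5p move its seed, so the miRNAs share their 3′ part but not their seed. A probe that pairs with all of miR-374c-5p also pairs with miR-374b-5p, and the signal named miR-374c-5p can hold both. The letters of the probes were not used here, and how far each miRNA contributes was not tested. Of the 1608 miRNAs on the array with a sequence in this table, 0 others had the seed of miR-374b-5p or of miR-374c-5p. The longest run that miR-374c-5p shared with any other of these 1608 miRNAs was 9 bases, with let-7b-3p. MiR-421-3p had no sequence in this table, so its seed and its shared runs were not examined.

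MiR-374c-5p was detected on all 16 arrays. Its normalized log2 signal in the WT replicates 1 to 8 was 5.96, 6.26, 6.22, 6.29, 6.07, 5.90, 6.31 and 6.26, with a median of 6.24. In the Dgcr8+/- replicates 1 to 8 it was 4.97, 4.72, 5.41, 5.46, 5.53, 5.51, 5.61 and 5.14, with a median of 5.43. Every Dgcr8+/- array lay below every WT array, and a gap of 0.29 separated the highest Dgcr8+/- from the lowest WT value. Such a complete separation downwards was seen for 17.2% of the 495 miRNAs that could be tested, those detected on at least 8 of the 16 arrays. The means were 6.16 ± 0.16 (SD, n = 8) in WT and 5.29 ± 0.32 (SD, n = 8) in Dgcr8+/-. The log2 difference, Dgcr8+/- minus WT, was −0.86 (SE 0.12), a signal 45.1% lower. The Dgcr8+/- arrays were spread more widely than the WT arrays, mainly through replicates 1, 2 and 8, which lay below the other 5.

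MiR-421-3p gave a dimmer signal. In the WT replicates 1 to 8 its log2 signal was 3.60, 3.68, 3.78, 4.09, 3.92, 3.88, 3.77 and 3.89, with a median of 3.83. In the Dgcr8+/- replicates 1 to 8 it was 3.23, 3.50, 3.51, 3.40, 3.39, 3.35, 3.32 and 3.26, with a median of 3.37. The groups did not overlap here either, but only 0.09 lay between them. The software detected it in all 8 WT arrays and in 7 of the 8 Dgcr8+/- arrays, with replicate 1, the lowest of all, not detected. The means were 3.83 ± 0.15 (SD, n = 8) and 3.37 ± 0.10 (SD, n = 8), and the log2 difference was −0.45 (SE 0.07), a signal 27.0% lower.

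**Figure D2:**
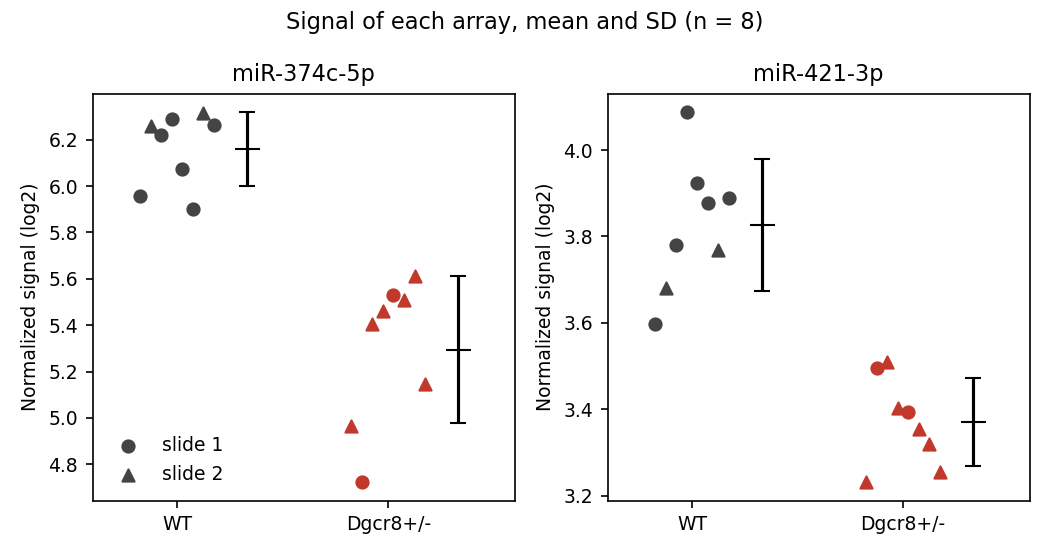
Normalized log2 signal of miR-374c-5p (left) and miR-421-3p (right) on each array, with circles for slide 1, triangles for slide 2 and the mean ± SD (n = 8) beside each group; the vertical axes do not start at 0. In both panels all 8 Dgcr8+/- arrays lie below all 8 WT arrays, and the gap is 0.29 for miR-374c-5p and 0.09 for miR-421-3p.

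Ordered from the lowest difference upwards, miR-374c-5p was at place 7 and miR-421-3p at place 75 of the 495 miRNAs, whose median difference was 0.04. Just before miR-374c-5p stood miR-106b-3p with −1.03, detected on only 11 arrays, and miR-130b-3p with −0.89. Just after it stood miR-708-3p and miR-582-3p, both with −0.85, the latter detected on 13 arrays. Given their standard errors of 0.10 to 0.19, these places have no firm order. Both miR-374c-5p and miR-421-3p were among the 138 miRNAs lower at an adjusted p below 0.05, which are 27.9% of those tested, and among the 89 lower past the thresholds used in the study, an unadjusted p below 0.05 and a log2 difference below −0.4, which are 18.0%. These counts follow from how the miRNAs were chosen.

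Each miRNA was read by 2 probes with 15 spots each. For miR-374c-5p both probes gave nearly the same difference. Probe A_54_P2863 went from 5.75 ± 0.18 to 4.83 ± 0.32 (SD, n = 8), a difference of −0.92, and probe A_54_P4405 from 6.48 ± 0.15 to 5.64 ± 0.32, a difference of −0.83. Neither probe had a Dgcr8+/- array inside the WT range.

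The probes of miR-421-3p disagreed in size. Probe A_54_P3081 went from 4.39 ± 0.16 to 3.85 ± 0.10 (SD, n = 8), a difference of −0.54, with no overlap. Probe A_54_P3080 went from 2.88 ± 0.17 to 2.62 ± 0.30 (SD, n = 8), a difference of −0.25, and here the Dgcr8+/- arrays ran from 2.24 to 3.15 across the whole WT range of 2.64 to 3.15. Before normalization this second probe gave only 4.33 to 10.4 signal units, and its spots varied by 34.5% to 88.3% (coefficient of variation) within an array. The separation of miR-421-3p therefore rested on A_54_P3081.

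**Figure D3:**
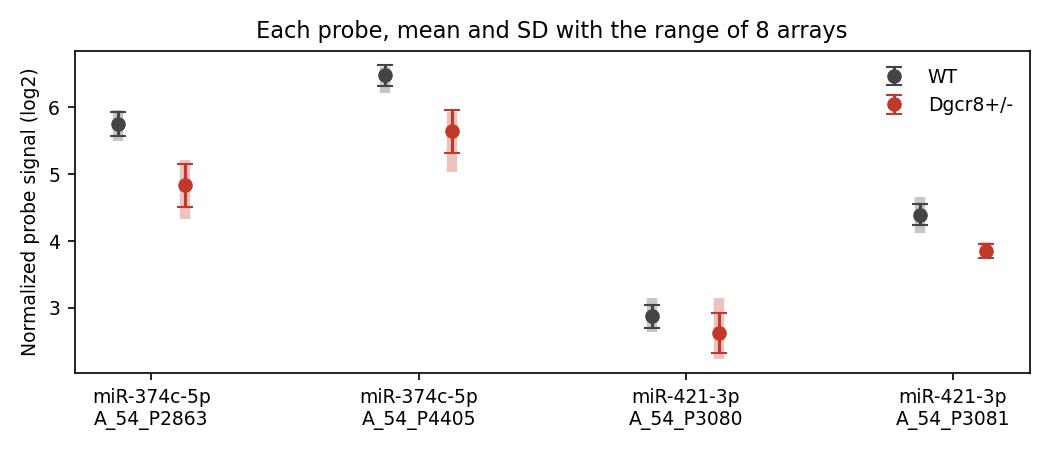
Normalized log2 signal of each probe, with points and bars for the mean ± SD (n = 8) and shaded bars for the range over 8 arrays of each genotype. The genotypes separate for both miR-374c-5p probes and for A_54_P3081, whereas A_54_P3080, the dimmest, overlaps between 2.64 and 3.15.

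The arrays lay on 2 slides, with 6 WT and 2 Dgcr8+/- arrays on slide 1 and 2 WT and 6 Dgcr8+/- arrays on slide 2. For miR-374c-5p the difference was −0.99 within slide 1 and −0.94 within slide 2. For miR-421-3p it was −0.41 within slide 1 and −0.38 within slide 2. With the slide as a block the differences were −0.96 and −0.40, so both miRNAs were lower in Dgcr8+/- on either slide.

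Because both miRNAs are read on the same array, the difference between their log2 signals can be followed from array to array, although its level also depends on the probes. MiR-374c-5p minus miR-421-3p was 2.33 ± 0.19 (SD, n = 8) in WT, with a range from 2.02 to 2.58. In Dgcr8+/- it was 1.92 ± 0.33 (SD, n = 8), with a range from 1.23 to 2.29. The genotype difference was −0.41 (SE 0.14), with the larger log2 difference for miR-374c-5p on this scale. This is a description only, since miR-374c-5p was chosen for the size of its fall on these arrays. Whether the dimmer signal of miR-421-3p has a part in it was not tested. The groups overlapped, with 4 of the 8 Dgcr8+/- arrays inside the WT range and 4 below it. Without Dgcr8+/- replicate 2 it was −0.31.

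Whether the miRNAs rose and fell together among mice of one genotype does not depend on the genotype difference and was tested with 2-sided exact permutation tests, 1 for each genotype, with Benjamini-Hochberg adjustment over these 2 relations. In WT mice Pearson's r was 0.23 (exact permutation p = 0.582, adjusted p = 0.983, n = 8) and Spearman's rho was 0.19 (exact permutation p = 0.665, adjusted p = 0.935). In Dgcr8+/- mice r was −0.0096 (exact permutation p = 0.983, adjusted p = 0.983, n = 8) and rho was −0.048 (exact permutation p = 0.935, adjusted p = 0.935). No relation was detectable with 8 arrays in either genotype on the normalized scale. Without the 2 arrays farthest from the miR-374c-5p median, r was −0.12 in WT (exact permutation p = 0.792, n = 6) and 0.32 in Dgcr8+/- (exact permutation p = 0.515, n = 6). Within slide 1 r was 0.53 for the 6 WT arrays (exact permutation p = 0.307), and within slide 2 it was 0.58 for the 6 Dgcr8+/- arrays (exact permutation p = 0.229). The other slide held only 2 arrays of each genotype. Dgcr8+/- replicate 2 weighed heavily, since without it r in Dgcr8+/- was 0.60 (exact permutation, adjusted p = 0.327, n = 7). With no normalization between arrays, where both miRNAs also share the brightness of their array, r was 0.72 in WT and 0.74 in Dgcr8+/- (exact permutation, adjusted p = 0.0366 for each, n = 8). With the labelling spike-ins r was 0.79 in WT (exact permutation, adjusted p = 0.0562, n = 8).

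The other arms of the 3 hairpins were all on the array, and the software detected each of them on 0 of the 16 arrays. MiR-374c-3p stayed at the floor of 1 signal unit, a log2 signal of 0, on every array. MiR-374b-3p reached at most 1.64 in WT and 1.17 in Dgcr8+/-, and miR-421-5p at most 0.52 and 0.47. None was bright enough to be compared between the genotypes.

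Among the 494 other tested miRNAs, those whose departures from their genotype mean were most like those of miR-374c-5p over the 16 arrays were miR-130b-3p (r = 0.88), miR-669n (r = 0.84) and miR-142a-3p (r = 0.83). These values are descriptions, since all miRNAs share the arrays and their normalization. Without Dgcr8+/- replicate 2 they were 0.79, 0.70 and 0.79, at places 3, 9 and 4. For miR-421-3p the most similar were miR-135a-5p (r = 0.71), miR-107-3p (r = 0.59) and miR-5103 (r = 0.58). Their r values without that array were 0.69, 0.54 and 0.58, at places 7, 23 and 17. MiR-421-3p itself came only at place 260 for miR-374c-5p, with r = 0.08, and with r = 0.36 and place 109 without that array.

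On the normalized scale, 2 of these 6 miRNAs passed the test between the genotypes. MiR-130b-3p fell by 0.89 on the log2 scale (SE 0.14, adjusted p = 5.61e-05 from limma). MiR-669n (−0.26, adjusted p = 0.0757 from limma) and miR-142a-3p (−0.17, adjusted p = 0.0754) missed the threshold, as did miR-135a-5p (0.09, adjusted p = 0.354) and miR-107-3p (−0.04, adjusted p = 0.290). With the slide as a block, miR-669n passed it (−0.37, adjusted p = 0.0249 from limma), as it did without Dgcr8+/- replicate 4 (−0.31, adjusted p = 0.0364). MiR-142a-3p passed it without Dgcr8+/- replicate 4 (−0.20, adjusted p = 0.0353 from limma) and without replicate 5 (−0.20, adjusted p = 0.0474). With no normalization and with the spike-ins, miR-669n, miR-142a-3p, miR-135a-5p and miR-107-3p all passed it as lower, with log2 differences from −0.60 to −0.47. MiR-5103 rose by 0.25 (SE 0.09, adjusted p = 0.0273 from limma), but over its alternatives the adjusted p reached 0.559, and with no normalization between arrays its difference was −0.12.

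The nearest miRNA genes outside Ftx lie much farther off than the hairpins lie from each other. On the side of higher coordinates these are Mir672 at 543 kb, Mir384 at 1771 kb and Mir325 at 1806 kb. On the other side they are Mir676 at 3192 kb, Mir223 at 7330 kb and Mir7673 at 9298 kb. Of these genes, 5 had an arm bright enough to test, and 3 of the 6 arms tested were lower in Dgcr8+/-, against a background of 27.9% of all tested miRNAs.

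MiR-672-5p, the nearest, had a log2 signal from 5.23 to 5.64 in WT (median 5.36) and from 3.79 to 4.87 in Dgcr8+/- (median 4.67). It fell by 0.80 (SE 0.12, adjusted p = 4.48e-05 from limma), and the groups did not overlap. Without Dgcr8+/- replicate 2, its lowest array, it fell by 0.69. The size was close to that of miR-374c-5p.

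MiR-325-3p ran from 4.59 to 4.79 in WT (median 4.70) and from 3.91 to 4.32 in Dgcr8+/- (median 4.23), again without overlap. It fell by 0.52 (SE 0.06, adjusted p = 2.24e-06 from limma). Its other arm, miR-325-5p, was detected on 7 WT arrays and 0 Dgcr8+/- arrays, too few to be tested. MiR-676-3p ran from 5.73 to 6.05 in WT and from 5.23 to 5.83 in Dgcr8+/-, an overlapping range, and fell by 0.31 (SE 0.07, adjusted p = 0.00194 from limma). Under every alternative run, these 3 neighbours stayed lower and past the threshold, with a highest adjusted p of 0.000747 for miR-672-5p, 0.00229 for miR-325-3p and 0.0169 for miR-676-3p.

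The other neighbours did not pass the test on the normalized scale. The log2 difference of miR-223-3p, a miRNA of myeloid cells, was −0.14 (SE 0.09, adjusted p = 0.194 from limma). Those of miR-384-3p and miR-384-5p, a neuronal miRNA, were −0.12 (SE 0.08, adjusted p = 0.170) and −0.03 (SE 0.06, adjusted p = 0.752). Without Dgcr8+/- replicate 2, miR-384-3p passed the threshold (−0.17, adjusted p = 0.0410 from limma). With no normalization between arrays, where the median of all tested miRNAs was −0.39, all 3 passed it as lower, with −0.50 for miR-223-3p (adjusted p = 0.00109 from limma), −0.49 for miR-384-3p (adjusted p = 0.000987) and −0.57 for miR-384-5p (adjusted p = 0.00298). They also passed it with the labelling spike-ins (adjusted p = 0.00404, 0.00516 and 0.00148 from limma, in the same order). Mir384 lies between the genes of the lower miR-672-5p and miR-325-3p, and on the normalized scale its arms had smaller differences than either.

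Counting these 6 arms, 37 other tested miRNAs had a gene on chromosome X, 5 of them with a further copy on another chromosome. Of the 37, 13 were lower, 3 of them the neighbours just described. This is 35.1%, beside 27.9% of all tested miRNAs, while 7 were higher, or 18.9%, beside 28.3%. Some of the 13 were not detected on every Dgcr8+/- array. With the test limited to miRNAs detected on all 16 arrays, 9 of chromosome X were lower and 7 higher. Of all 430 miRNAs tested in that way, 114 were lower and 136 higher. The median log2 difference of the 37 was −0.03, with quartiles of −0.45 and 0.16, beside 0.04, −0.27 and 0.27 for all tested miRNAs. None of the 37 had a lower difference than miR-374c-5p, and 9 had a lower one than miR-421-3p. Those closest to miR-374c-5p were miR-672-5p and miR-505-5p, both at −0.80, and the highest was miR-680, at 0.56. MiR-672-5p was detected on all 16 arrays, but miR-505-5p on 8 WT and only 3 Dgcr8+/- arrays.

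**Figure D4:**
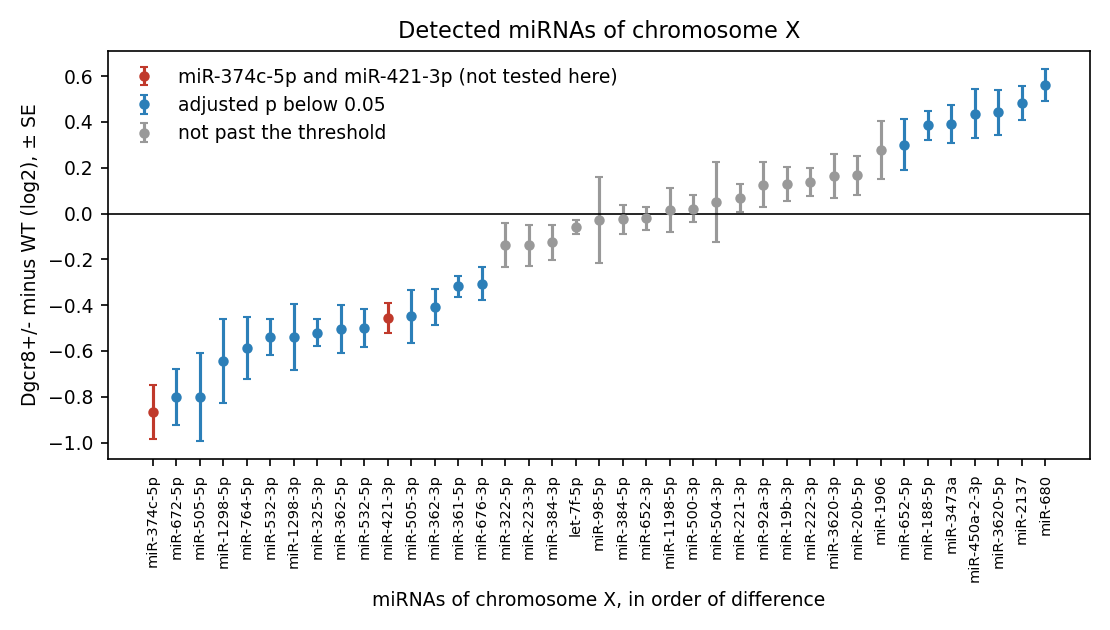
Log2 difference, Dgcr8+/- minus WT, with its standard error for miR-374c-5p, miR-421-3p and the other 37 tested miRNAs with a gene on chromosome X, ordered by size. MiR-374c-5p, at −0.86, is the lowest and miR-421-3p, at −0.45, lies among the 13 that passed the test downwards, while 7 passed it upwards.

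The sizes depended on the scale on which arrays were compared. With no normalization between arrays the differences were −1.25 for miR-374c-5p and −0.82 for miR-421-3p. On that scale the median of all tested miRNAs was −0.39, so relative to it they were −0.86 and −0.43. With a normexp background correction, which adds an offset and draws dim signals together, they were −0.38 and −0.068. MiR-374c-5p was lower in Dgcr8+/- under every setting tried, between places 1 and 21 of the miRNAs tested under each, whereas miR-421-3p took places 54 to 142. Place 1 came from the filter for detection on all 16 arrays, which left 430 miRNAs and dropped miR-421-3p. Leaving out each array in turn gave −0.91 to −0.78 for miR-374c-5p and −0.49 to −0.42 for miR-421-3p.

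**Figure D5:**
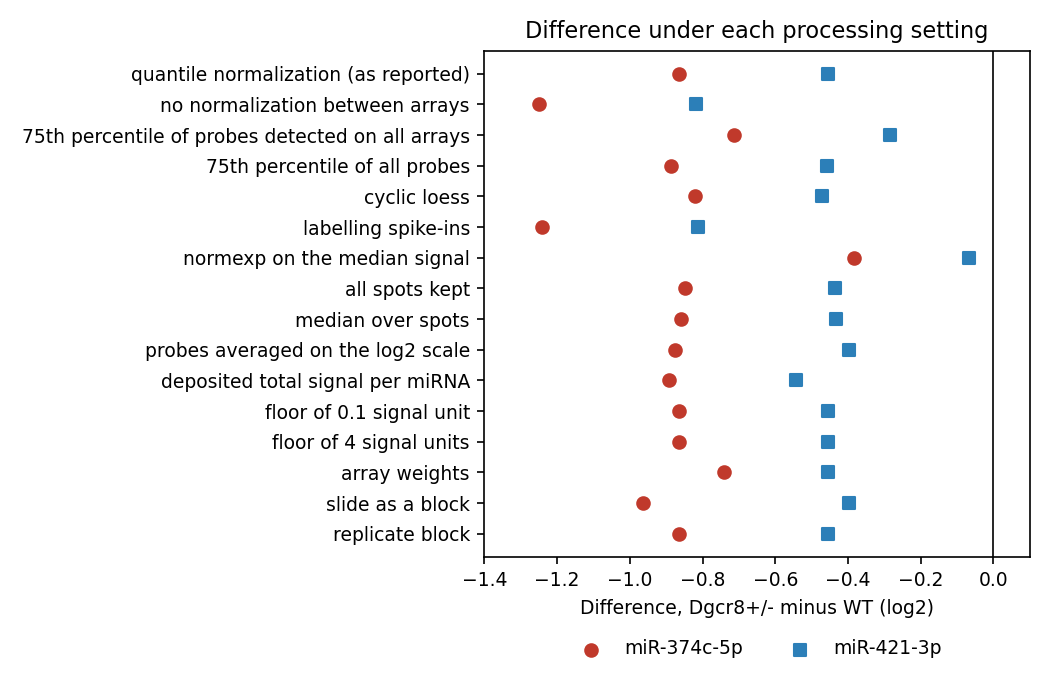
Log2 difference, Dgcr8+/- minus WT, of miR-374c-5p (circles) and miR-421-3p (squares) under each processing setting, with the reported one on top. All points lie below 0, from −1.25 to −0.38 for miR-374c-5p and from −0.82 to −0.068 for miR-421-3p.

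Array quality and the marker miRNAs of cell types were as follows. The markers are miRNAs themselves, so in Dgcr8+/- mice their levels cannot stand for cell numbers. The software detected 495 to 540 miRNAs on WT arrays and 467 to 492 on Dgcr8+/- arrays. Dgcr8+/- replicate 2, the array with the lowest miR-374c-5p signal, had a log2 hybridisation spike-in signal of 13.7, beside 14.9 to 15.1 on the other 7 Dgcr8+/- arrays. Of 7 markers of ciliated ependymal cells, 5 were tested and 0 passed the threshold (miR-34c-5p, 0.35, adjusted p = 0.0594 from limma), with miR-449b and miR-449c-5p not detected. Their summed normalized signal was 543 to 1288 units in WT and 870 to 1570.0 in Dgcr8+/-. Of the 4 markers of microglia and immune cells, which include miR-142a-3p and miR-223-3p, 1 was lower (miR-142a-5p, −0.23, adjusted p = 0.0270), with sums of 193 to 241 and 171 to 222. Of the 4 of red blood cells, 3 were tested and 1 was lower (miR-486a-5p, −0.66, adjusted p = 0.000599), with sums of 534 to 892 and 468 to 727. Of the 2 markers of choroid plexus, 1 was lower (miR-204-5p, −0.29, adjusted p = 0.0136 from limma). Of the 4 of neurons, 1 was lower (miR-128-3p) and 1 higher (miR-138-5p). Of the 3 of oligodendrocytes, 1 was higher (miR-219a-2-3p), and of the 4 of blood vessels, 2 were higher (miR-126a-5p and miR-143-3p). Among all tested miRNAs 27.9% were lower and 28.3% higher. The part of cell makeup and of array quality in the differences of miR-374c-5p and miR-421-3p was not tested.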

How the data were processed

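The authors labelled total RNA with Cy3 and hybridised it to 1-colour Agilent miRNA arrays. They deposited the scanner output, in which Agilent Feature Extraction (version 10.7.3.1 in the file headers, 10.5.1.1 in the submitters' processing notes) gives a background-corrected intensity per spot without normalization between arrays. Their deposited series table equals the total gene signal of that output. From the spot intensities, outlier spots were left out, spots were averaged per probe, probes were quantile-normalized as in the study, probes of a miRNA were averaged, a floor of 1 signal unit was applied, and the log2 scale was used for all comparisons. The filter asked for detection on 8 or more of the 16 arrays. Genotypes were compared with limma 3.58.1 in R 4.3.3 with Benjamini-Hochberg adjustment over 495 miRNAs, without a block; the fit was tested on simulated data. Labels call the samples biological replicates. The number of arrays limits the precision.

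The miRNAs, neighbours and marker lists were chosen with earlier results of these data known. Named were the miRNAs of the Ftx region, their other arms, array miRNAs with a shared seed and the 3 nearest miRNA genes on each side. The 3 most similar miRNAs by correlation, the 2 miRNAs ranked on each side of miR-374c-5p, and markers were named too. Names outside this rule (miR-505-5p, miR-680 and let-7b-3p) were chosen after their values were seen. Comparisons planned with miR-374b-5p could not be made, and miR-374c-5p minus miR-421-3p, chosen after the data were seen, replaced them. Sequences and positions are from RefSeq (GRCm38.p6). Of the array's 1881 miRNAs, 1837 were placed on a chromosome and 1608 had a sequence. Exact permutation tests used all 40320 pairings of 8 arrays.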

Additional observations from a re-analysis of the deposited data

Results flagged for a closer look

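In 34 searched groups of 8 arrays, 6 values stood far from the rest of their group, where chance alone gives about 1 in 20 groups. The groups share the same arrays and their normalization, so these values are not independent. All but the value of WT replicate 6 came from a single array, Dgcr8+/- replicate 2. In Dgcr8+/- replicate 2, miR-676-3p was 5.23 beside 5.56 to 5.83 on the other Dgcr8+/- arrays, and miR-672-5p was 3.79 beside 4.49 to 4.87. On the same array miR-135a-5p was 8.43 beside 8.02 to 8.18, and miR-5103 was 3.95 beside 3.31 to 3.58 (log2 signals). The log2 hybridisation spike-in signal of this array was 13.7 beside 14.9 to 15.1, and that of WT replicate 6 was 16.1 beside 14.9 to 15.3. No value of miR-374c-5p or miR-421-3p stood apart in this way.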

How the results depend on the processing

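The log2 difference of miR-374c-5p was −1.25 with no normalization between arrays, −1.24 when scaled to the labelling spike-ins and −0.38 with normexp. That of miR-421-3p was −0.82, −0.81 and −0.068 under the same settings, and −0.28 with scaling by the 75th percentile of always-detected probes. Their within-array difference ranged from −0.57 to −0.32 over its alternatives and from −0.46 to −0.31 when 1 array was left out, and these 3 differences kept their sign in every setting run.

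With no normalization 293 miRNAs were lower and 0 higher (limma; 0 higher at an unadjusted p below 0.05, and 2 by the methods' t-test), and with the labelling spike-ins 264 were lower and 0 higher (0 unadjusted by either test). The spike-in and unnormalized scales move the median of all tested miRNAs to −0.38 and −0.39. On chromosome X, 28 were lower and 0 higher with no normalization, 25 and 0 with the spike-ins (limma; at an unadjusted p below 0.05, 0 higher in both, and 1 and 0 by the t-test), and 20 were lower without the detection filter. With the filter set to detection on every array, 9 were lower and 7 higher there. The other arms, being undetected, were tested only in the setting without the detection filter, where they gave 0 calls. Filter and floor settings leave the difference of a single detected miRNA as it is. Leaving out 1 array gave 133 to 150 lower and 126 to 170 higher miRNAs, and 13 to 15 lower and 6 to 8 higher on chromosome X.

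For the pair's correlation in WT, r was 0.79 with spike-ins, 0.72 with no normalization, 0.51 with the 75th percentile of all probes and −0.087 with that of detected probes, and −0.11 to 0.42 with 1 array left out. In Dgcr8+/- it was 0.74 with no normalization, 0.10 with the 75th percentile of all probes, 8.9e-05 with cyclic loess, 0.38 with spike-ins, 0.078 with the median over spots and 0.55 with the deposited totals, and −0.32 to 0.60 with 1 array left out. Signs also turned for miR-223-3p (0.038) and miR-384-3p (0.041) with the 75th percentile of detected probes, for miR-384-5p with deposited totals (0.033), array weights (0.015) and with 1 array left out (−0.060 to 0.0030, the highest without Dgcr8+/- replicate 2), for miR-135a-5p with no normalization (−0.47), spike-ins (−0.47), the 75th percentile of all probes (−0.11) and cyclic loess (−0.0028), and for miR-5103 with no normalization (−0.12) and spike-ins (−0.11). The cause was not tested.

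The labels tie no replicate number to a shared litter or day. The deviations of same-numbered arrays correlated above 0.1 in 5 of 8 pairs, from 0.23 to 0.50, and below 0 in the other 3, and 5 of 16 arrays correlated best with their own number. As the correlation was not above 0.1 in every pair, the numbers were not treated as pairing. With the replicate block the differences of miR-374c-5p and miR-421-3p were −0.86 and −0.45, with 140 lower and 147 higher miRNAs. MiR-421-3p was dim and undetected on 1 array, and the part of this in its size was not tested.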
